A study of Mus musculus with 6 samples.

Results

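The transforming growth factor beta (TGF-beta) family was followed through 50 genes: the TGF-beta, bone morphogenetic protein (BMP), growth and differentiation factor (GDF), activin and inhibin chains, their receptors, the SMAD proteins, the latent TGF-beta binding proteins and a group of secreted antagonists. The rule that lists them uses gene symbols and no measured value, though it was drawn up with earlier results of these data known, and they are 50 of the 14943 symbols in the deposited table of read counts. RNA sequencing was done on peritoneum, the lining of the belly and its organs, from wild-type male C57BL/6J mice aged 8 weeks, in 3 control libraries and 3 libraries of an EPS model. EPS, encapsulating peritoneal sclerosis, is a disease of long dialysis in which scar tissue wraps the gut. EPS mice were injected into the abdomen daily with peritoneal dialysis solution (PDS, 4.25%, 100 mL/kg) and with 0.3 mL SHS, an agent the labels do not spell out. Lipopolysaccharide (LPS), a bacterial endotoxin, was added weekly at 4 mg/kg. Controls were given saline of the same volume, so what each agent contributes cannot be told apart. Tissue was collected in week 3. The labels do not say whether a library is 1 mouse or a pool, and the p-values measure only the spread between these libraries.

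TGF-beta family ligands are secreted dimers. They bring together a type II and a type I receptor, both kinases, and the type I receptor phosphorylates receptor-regulated SMADs: SMAD2 and SMAD3 for TGF-betas and activins, SMAD1, SMAD5 and SMAD9 for BMPs. These pair with SMAD4 and act on genes in the nucleus, while SMAD6 and SMAD7 inhibit the pathway. TGF-beta1 is stored in the matrix or on cell surfaces in a latent form and is known as a driver of fibrosis in the peritoneum, where it can turn mesothelial cells and fibroblasts toward matrix production; BMPs often act in the opposite sense.

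Library totals ran from 15419232 to 17684229 counts. Values are given as CPM, the count scaled to a common library size, with library sizes corrected by TMM, a method that assumes most genes do not change. CPM means carry the SD (n = 3) after ±, and changes are log2 fold changes of EPS over control ± standard error. The adjusted p of each gene comes from edgeR's quasi-likelihood test over all 13980 genes tested. Genes under an adjusted p of 0.05 are referred to as called. Mesothelial markers were present in every library, with summed levels of 131.7 to 208 CPM in control and 44.3 to 366 CPM in EPS. None of the 9 was called. The 366 CPM was EPS 1, where Krt18 and Krt8 stood at 105.8 and 86.2 CPM. Only Upk3b did not overlap between groups, and it was lower in EPS. Fat cell markers summed to 28259 to 29007 CPM in control and 2571 to 4269 CPM in EPS. EPS 1 stood apart: 10 genes of the exocrine pancreas summed to 150162 CPM in it, against 165 and 505 CPM in EPS 2 and EPS 3. In controls 1, 2 and 3 they summed to 3801, 3577 and 333 CPM.

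Of the 50 genes, 47 had enough counts to be tested. EPS libraries were higher for 12 of them (25.5%, against 29.2% of all genes tested) and lower for 20 (42.6%, against 30.4%), and 15 were not called. Together 68.1% of the tested members were called, against a background of 59.6% of all genes. The groups did not overlap for 34 members (72.3%, against 68.5% of all genes): EPS lay all above for 13 (33.1% of all genes did) and all below for 21 (35.4%). The median log2 fold change was -0.30 over the members and -0.02 over all genes. Without EPS 1, 12 members were higher and 19 lower. Scaling altered these counts. On library totals alone, 15 were higher and 8 lower, so 65.2% of the calls were upward in place of 37.5%, and for all genes 72.1% in place of 49.1%. Under it the log2 fold change of the median gene shifted by 0.42. All 12 members called higher, and 8 of the 20 called lower, were called under each of the 16 alternative settings tried; the 8 are Acvr1c, Bmp6, Inhbb, Nog, Ltbp4, Ltbp3, Bmpr1a and Smad6. The only large shift of the median gene was upward, and the lowest was -0.024 (limma-voom). Through scaling, the settings therefore tried the lower calls harder than the higher ones.

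**Figure D1:**
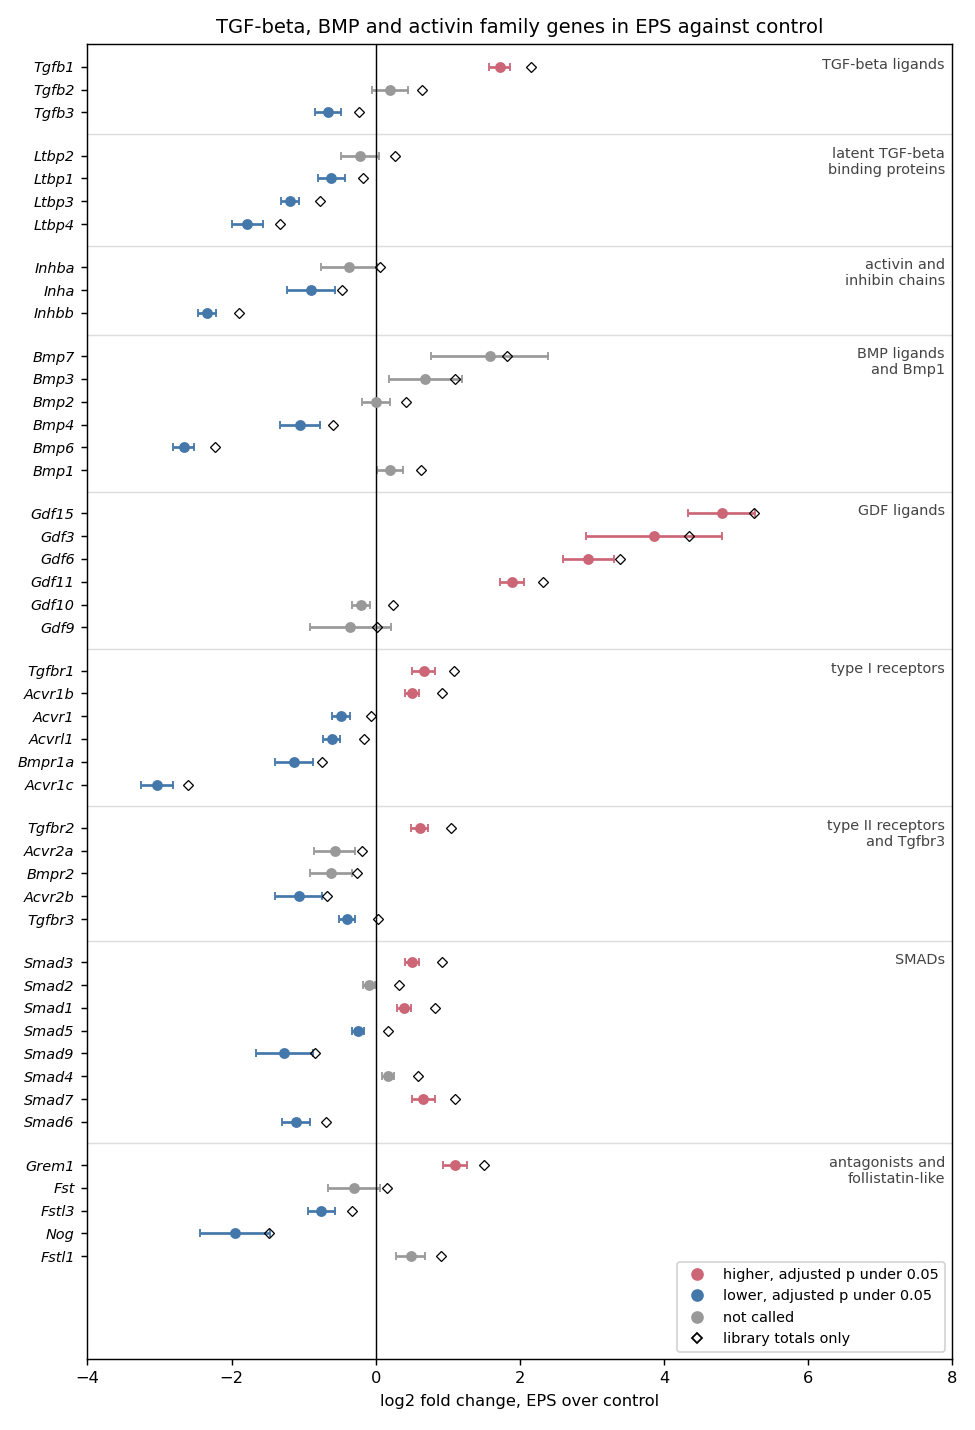
Log2 fold change of EPS over control for 46 of the tested family genes, grouped by role. Filled points with bars show the estimate ± standard error from edgeR with TMM scaling, coloured by the call, and open diamonds show the estimate with library totals only. The GDF ligands Gdf15, Gdf3 and Gdf6 lie farthest to the right and Acvr1c, Bmp6 and Inhbb farthest to the left.

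Promoter sequence is shown for 4 members that carry the contrast: Tgfb1 and Grem1, a ligand and a BMP antagonist that rose, and Inhbb and Smad6, a ligand chain and an inhibitory SMAD that fell. Each sequence is the 250 bases before the RefSeq transcription start on GRCm38.p6, 5′ to 3′ on the gene's strand, and capitals mark matches to the motifs searched.
Tgfb1 (chr7:25686752-25687001, plus strand): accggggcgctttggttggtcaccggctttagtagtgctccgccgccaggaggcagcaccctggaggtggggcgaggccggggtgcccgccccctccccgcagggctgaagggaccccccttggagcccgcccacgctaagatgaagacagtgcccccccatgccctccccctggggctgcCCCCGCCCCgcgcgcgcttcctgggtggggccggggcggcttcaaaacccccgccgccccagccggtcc
Grem1 (chr2:113758649-113758898, minus strand): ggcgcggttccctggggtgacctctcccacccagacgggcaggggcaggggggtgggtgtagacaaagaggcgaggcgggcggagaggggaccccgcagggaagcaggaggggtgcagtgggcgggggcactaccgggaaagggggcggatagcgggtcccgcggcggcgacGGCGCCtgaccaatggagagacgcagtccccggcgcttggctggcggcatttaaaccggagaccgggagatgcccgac
Inhbb (chr1:119422249-119422498, minus strand): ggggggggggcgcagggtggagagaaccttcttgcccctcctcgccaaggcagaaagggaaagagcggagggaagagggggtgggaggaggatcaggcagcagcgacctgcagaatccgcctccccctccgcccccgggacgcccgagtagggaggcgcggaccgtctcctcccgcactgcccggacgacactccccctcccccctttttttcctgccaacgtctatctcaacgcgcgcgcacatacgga
Smad6 (chr9:64022060-64022309, minus strand): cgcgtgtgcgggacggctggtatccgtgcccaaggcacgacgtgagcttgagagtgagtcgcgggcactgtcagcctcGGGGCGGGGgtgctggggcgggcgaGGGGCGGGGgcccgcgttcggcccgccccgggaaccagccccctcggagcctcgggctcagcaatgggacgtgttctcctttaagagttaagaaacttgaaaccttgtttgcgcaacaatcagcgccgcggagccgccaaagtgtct
The motifs were the SMAD palindrome GTCTAGAC, the GC-rich element GGCGCC through which BMP SMADs are known to bind, the AP-1 site TGACTCA, the E-box CACGTG, the GC box GGGGCGGGG, the cAMP response element TGACGTCA and the NF-kappaB consensus site, on both strands. The Tgfb1 window held 1 GC box starting 69 bases before the start site, the Grem1 window 1 GGCGCC element at 78 bases, and the Smad6 window 2 GC boxes at 172 and 147 bases. No motif was matched in the Inhbb window. RefSeq windows were found for 34 of the 50 members (44 windows), and among these members 9 held the GC box, 7 GGCGCC, 5 the E-box and 2 the cAMP response element, and 0 the other 3. Of all 32851 windows, 10.4% held the GC box, 9.59% GGCGCC, 6.02% the E-box, 1.55% the cAMP response element, 4.46% the AP-1 site, 0.167% the SMAD palindrome and 0.14% the NF-kappaB site. The counts are of members with a match in any of their windows and the percentages are of windows, so they cannot be set directly against each other. All 4 windows shown were GC-rich, at 75.2%, 72%, 68% and 66.8% for Tgfb1, Grem1, Inhbb and Smad6, against a median of 52.4% over all windows. A match is a stretch of letters, not evidence of binding.

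Among the 3 TGF-beta ligands, Tgfb1 rose, Tgfb3 fell and Tgfb2 was not called. Tgfb1 (chromosome 7, 25687002 to 25705077, plus strand, GRCm38) stood at 68.1, 78.6 and 68.8 CPM in controls 1, 2 and 3 and 209, 218 and 284 CPM in EPS 1, 2 and 3. All EPS libraries lay above all controls, and the gene rose 3.3-fold, by 1.72 ± 0.14 on the log2 scale (adjusted p = 2.73e-05). Tgfb3 (chromosome 12, 86056745 to 86079041, minus strand), the isoform known for scar-poor repair in the skin, stood at 83.8, 88.9 and 71.1 CPM in controls 1, 2 and 3 and 47.8, 66 and 40.2 CPM in EPS 1, 2 and 3. EPS 2 came nearest to the controls without reaching them, and the gene fell by 0.66 ± 0.19 (adjusted p = 0.0163). The Tgfb3 call was lost without control 1 (adjusted p = 0.0532), without control 2 (0.0604) and with library totals (0.426). Tgfb2 ranged from 8.86 to 17.3 CPM over the 6 libraries, with EPS on both sides of the controls (0.20 ± 0.25, adjusted p = 0.513). Macrophage markers, whose cells make TGF-beta1, summed to 680 to 747 CPM in control and 3391 to 4235 CPM in EPS, 7 of the 8 being higher. T cell markers summed to 5.94 to 7.0 CPM and 316 to 645 CPM. Their part in the rise of Tgfb1 was not tested, and in these bulk samples more cells of a type and more RNA per cell cannot be told apart.

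A share of a ligand within a library does not depend on how libraries are scaled. Of the summed per-length level of the 3 TGF-beta ligands, counts per kilobase of exon, Tgfb1 took 33.7, 35.5 and 37.5% in the 3 controls and 72.1, 65.7 and 80.8% in EPS 1, 2 and 3. Per kilobase, the ligand mix moved from Tgfb3-led to Tgfb1-led in each EPS library, a difference of 37.3 percentage points. An exact two-sided permutation test gave p = 0.1 (adjusted p = 0.117 over 7 shares), and 0.1 is the smallest p that 3 against 3 libraries allow. By raw counts the difference was 34.7 points. Tgfb3 then led only narrowly in control, with 1174, 1347 and 1076 counts in controls 1, 2 and 3. Tgfb1 had 954, 1191 and 1042 counts there. How far Tgfb3 led in control therefore rests on the exon lengths used.

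Latent TGF-beta binding proteins hold the latent cytokine in the matrix, and 3 of the 4 were called lower, against 30.4% of all genes; the Ltbp1 call did not hold under several alternatives. Ltbp4 (chromosome 7, 27305136 to 27337692, minus strand), which also organises elastic fibres, had the highest per-length level of the members in control and stood at 817, 861 and 809 CPM in controls 1, 2 and 3 and 182, 325 and 216 CPM in EPS 1, 2 and 3. No library of the groups overlapped, and Ltbp4 fell by 1.78 ± 0.21 (3.44-fold, adjusted p = 1.98e-04). Ltbp3 (chromosome 19, 5740904 to 5758532, plus strand) stood at 418, 440.2 and 435 CPM in controls 1, 2 and 3 and 196, 213 and 159 CPM in EPS 1, 2 and 3, and fell by 1.19 ± 0.13 (adjusted p = 1.19e-04). Ltbp1, a binding protein that tethers latent TGF-beta to fibrillin microfibrils, stood at 112, 102 and 109 CPM in controls 1, 2 and 3 and 56.3, 92.7 and 61 CPM in EPS 1, 2 and 3. It fell by 0.62 ± 0.19 (adjusted p = 0.0213), with EPS 2 nearest to the controls, and the call was lost without control 1 (adjusted p = 0.0670), control 3 (0.0608) or EPS 3 (0.0646) and with library totals (0.595). Ltbp2, which does not bind latent TGF-beta, was not called: EPS 1 was at 44.3 CPM, and EPS 2 and EPS 3, at 90.2 and 88.2 CPM, lay within the control range of 74.5 to 93.5 CPM (-0.21 ± 0.26). Ltbp4 took 65.2, 65.7 and 65% in the 3 controls and 46.6, 53.8 and 49.5% in EPS 1, 2 and 3 of the per-length level of the 4 genes, a drop without overlap (exact permutation p = 0.1, adjusted p = 0.117). Smooth muscle markers, for cells of elastic vessel walls, summed to 3260 to 3634 CPM in control and to 957, 2420 and 676 CPM in EPS 1 to 3, and their part in the fall of Ltbp4 was not tested.

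Activins are dimers of the inhibin beta chains. Inhbb (chromosome 1, 119415465 to 119422248, minus strand), the beta B chain, which fat cells are known to make, stood at 71.1, 72.8 and 75.3 CPM in controls 1, 2 and 3 and 12.8, 16.5 and 13.9 CPM in EPS 1, 2 and 3. Libraries of each group lay close together, and Inhbb fell by 2.34 ± 0.12 (5.06-fold, adjusted p = 3.53e-06). Inhba, the beta A chain of activin A, had low counts, with 22 to 48 counts per library in control and 26 to 46 in EPS, and was not called (-0.36 ± 0.39, adjusted p = 0.442). Inha, the inhibin alpha chain, stood at 2.35, 2.38 and 2.31 CPM in controls 1, 2 and 3 and 1.18, 1.6 and 0.99 CPM in EPS 1, 2 and 3. It fell by 0.90 ± 0.34 (adjusted p = 0.0489), and 13 of the 16 alternatives lost this call, among them leaving out control 1 (adjusted p = 0.118), control 2 (0.125), control 3 (0.107), EPS 1 (0.114) or EPS 3 (0.115). The Inhba share of the 2 beta chains was 2.35, 2.82 and 1.27% in the 3 controls and 8.56, 5.71 and 9.83% in EPS 1, 2 and 3. The fat cell marker sums above are 28259 to 29007 CPM in control and 2571 to 4269 CPM in EPS, with all 10 markers lower, and their part in the fall of Inhbb was not tested.

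BMP ligands fell or were not called. Bmp6 (chromosome 13, 38345107 to 38500302, plus strand), a regulator of iron balance through hepcidin, stood at 53.2, 54.4 and 62.2 CPM in controls 1, 2 and 3 and 7.61, 9.72 and 9.35 CPM in EPS 1, 2 and 3. All EPS libraries lay far below all controls, and Bmp6 fell by 2.66 ± 0.14 (6.34-fold, adjusted p = 3.77e-06). Bmp4 (chromosome 14, 46383520 to 46390669, minus strand), a ligand that commits precursor cells to the fat lineage, stood at 33.2, 35.3 and 20.1 CPM in controls 1, 2 and 3 and 10.5, 18.5 and 13.6 CPM in EPS 1, 2 and 3. Control 3 lay well below the other controls but above EPS 2, and Bmp4 fell by 1.05 ± 0.28 (adjusted p = 0.0118). The Bmp4 call was lost with library totals (adjusted p = 0.137). It was also lost with controls 1 and 2 averaged as 1 sample and EPS 1 left out (0.0915). Bmp2 was not called, at 6.01 to 7.66 CPM in control and 6.67 to 7.75 CPM in EPS (0.01 ± 0.20). Bmp3, which is known to oppose other BMPs, was at 14.8 and 21.4 CPM in EPS 1 and EPS 2 but at 5.30 CPM in EPS 3, beside 5.29 to 10.6 CPM in control, and was called only without EPS 3 (1.08, adjusted p = 0.0248). Bmp7, which is known to counter TGF-beta1 in fibrosis, was at 3.64 to 4.23 CPM in control, 26.6 CPM in EPS 1, 5.35 in EPS 2 and 2.97 in EPS 3. Its estimate of 1.58 ± 0.81 (adjusted p = 0.139) rested on EPS 1, the library with the pancreas transcripts, and was 0.17 (adjusted p = 0.660) without it. Bmp7 was called without EPS 3 (adjusted p = 0.0421) and by DESeq2 (0.0192). Bmp1, a protease that trims procollagen and not a ligand despite its name, was not called (0.20 ± 0.18); it was higher without EPS 3 (0.38, adjusted p = 0.0241) and with library totals (0.62, 0.0347).

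GDF ligands held the largest rises in the family: 4 of 6 tested were higher and 0 lower, against 29.2% and 30.4% of all genes. Control counts of 3 of the 4, Gdf15, Gdf6 and Gdf3, were low, so their fold sizes are imprecise. These 3 passed the count filter only through their EPS libraries, so they could enter the test as rises but not as falls. The 4 of 6 therefore cannot be weighed against the shares of all genes. Gdf15 (chromosome 8, 70629393 to 70632456, minus strand), a stress-induced cytokine that curbs appetite through a receptor outside this family, was nearly silent in control, with 6, 2 and 7 counts, and reached 102, 186 and 266 counts in EPS. It stood at 0.428, 0.132 and 0.462 CPM in controls 1, 2 and 3 and 7.06, 8.73 and 13.2 CPM in EPS 1, 2 and 3, and rose 27.9-fold, by 4.80 ± 0.46 (adjusted p = 5.81e-05). Gdf6 (chromosome 4, 9844372 to 9862345, plus strand), a BMP-like ligand of joint and skeletal development, stood at 0.499, 0.528 and 0.793 CPM in controls 1, 2 and 3 and 4.08, 5.96 and 4.21 CPM in EPS 1, 2 and 3. All EPS libraries were above all controls, a rise of 2.95 ± 0.36 (adjusted p = 2.02e-04) from control levels of 7 to 12 counts. Gdf11 (chromosome 10, 128882295 to 128891718, minus strand), a close relative of myostatin that signals through SMAD2 and SMAD3, stood at 4.92, 5.81 and 4.89 CPM in controls 1, 2 and 3 and 18.9, 17.9 and 21.2 CPM in EPS 1, 2 and 3. It was even among the EPS libraries and rose 3.71-fold, by 1.89 ± 0.16 (adjusted p = 3.13e-05). Gdf3, a ligand of the BMP and nodal type, had 0, 1 and 6 counts in controls and 11, 72 and 59 in EPS, or 0, 0.066 and 0.396 CPM in controls 1, 2 and 3 and 0.761, 3.38 and 2.92 CPM in EPS 1, 2 and 3. Its rise of 3.86 ± 0.94 (adjusted p = 0.0085) came from few control counts and stood at 5.84 without control 3, which held 6 of the 7. Gdf10, known as BMP3B, was not called (-0.21 ± 0.13), with 140 to 152 CPM in control and 104 to 144 CPM in EPS. Gdf9, an oocyte factor, had 7 to 18 counts in every library and was not called. Gdf7 was too sparse to be tested, with 40 counts in EPS 2, 0 in EPS 1 and EPS 3 and 2 to 6 in controls.

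**Figure D2:**
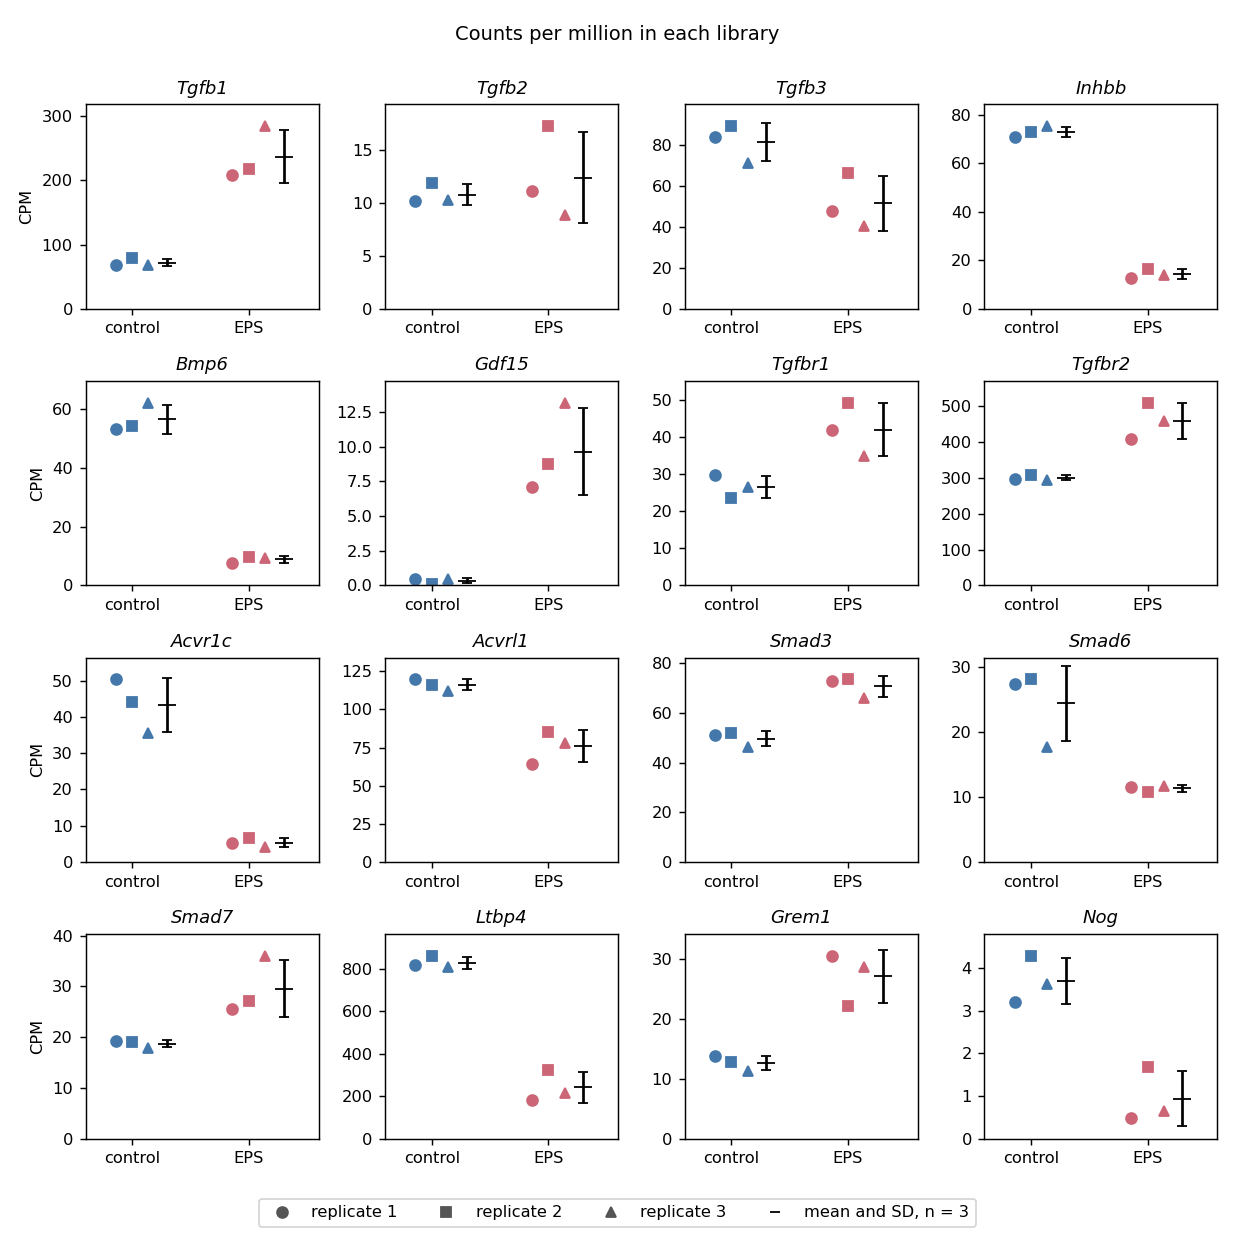
CPM of 16 members in each library (vertical axes start at 0 and differ between panels), with replicate numbers as marker shapes and the mean ± SD (n = 3) as bars. EPS libraries lie above every control for Tgfb1, Gdf15, Tgfbr1, Tgfbr2, Smad3, Smad7 and Grem1 and below every control for Tgfb3, Inhbb, Bmp6, Acvr1c, Acvrl1, Smad6, Ltbp4 and Nog, and the groups overlap for Tgfb2.

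Of the 6 type I receptor genes tested, 2 were called higher and 4 lower, where 29.2% of all genes were higher and 30.4% lower, and 2 of the 4 lower calls were lost with library totals (values below). Tgfbr1 and Acvr1b, the type I receptors of TGF-beta and of activin, both of which act on SMAD2 and SMAD3, rose. Acvr1, Bmpr1a and Acvrl1, the BMP type I receptors that act on SMAD1, SMAD5 and SMAD9, fell, as did Acvr1c, which acts on SMAD2 and SMAD3. Tgfbr1 (chromosome 4, 47353222 to 47414931, plus strand) stood at 29.7, 23.5 and 26.5 CPM in controls 1, 2 and 3 and 42, 49.3 and 34.9 CPM in EPS 1, 2 and 3, a rise of 0.66 ± 0.16 (adjusted p = 0.00702). Acvr1b stood at 37.2, 37.2 and 36 CPM in controls 1, 2 and 3 and 56.3, 49.1 and 51.4 CPM in EPS 1, 2 and 3, a rise of 0.51 ± 0.10 (adjusted p = 0.0024). Neither gene had an EPS library within the control range.

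Acvr1c (chromosome 2, 58267453 to 58357895, minus strand), the receptor ALK7, which is known from white fat, stood at 50.4, 44.2 and 35.6 CPM in controls 1, 2 and 3 and 5.26, 6.57 and 4.06 CPM in EPS 1, 2 and 3. It fell by 3.03 ± 0.22 (8.18-fold, adjusted p = 1.44e-05), the largest fall among the members. Bmpr1a (chromosome 14, 34410734 to 34503341, minus strand) stood at 68, 67.3 and 64.7 CPM in controls 1, 2 and 3 and 37, 36.5 and 17.7 CPM in EPS 1, 2 and 3. EPS 3 was lowest, and Bmpr1a fell by 1.14 ± 0.26 (adjusted p = 0.00743). Acvrl1 (chromosome 15, 101128522 to 101145336, plus strand), the receptor ALK1 of the vascular endothelium, stood at 119.6, 116 and 112 CPM in controls 1, 2 and 3 and 64.4, 85.5 and 78.3 CPM in EPS 1, 2 and 3, and fell by 0.61 ± 0.12 (adjusted p = 0.00286). Acvr1, also known as ALK2, stood at 31.1, 33.5 and 33.2 CPM in controls 1, 2 and 3 and 22.5, 26.2 and 21.1 CPM in EPS 1, 2 and 3, and fell by 0.48 ± 0.13 (adjusted p = 0.0114). With library totals, neither Acvrl1 (-0.17, adjusted p = 0.543) nor Acvr1 (-0.06, 0.829) was called. The Acvr1 call was also lost with controls 1 and 2 averaged as 1 sample and EPS 1 left out (adjusted p = 0.0670). Bmpr1b was untested, with 2 to 4 counts in controls and 12, 73 and 7 in EPS 1 to 3. Markers of blood endothelium summed to 2116 to 2196 CPM in control and 856 to 1084 CPM in EPS, and all 8 fell; their part in the fall of Acvrl1, and that of fat cell markers in the fall of Acvr1c, were not tested.

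As shares of the summed per-length level of the 7 type I receptors, Tgfbr1 was 7.14, 5.84 and 6.82% in the 3 controls and 14.1, 14.7 and 12.4% in EPS 1, 2 and 3, and Acvr1c 8.52, 7.73 and 6.44% in the 3 controls and 1.24, 1.38 and 1.02% in EPS 1, 2 and 3. Acvrl1 was the largest of the 7 in control and remained so in EPS. It took 44.1, 44.2 and 44.3% in the 3 controls and 33.2, 39.2 and 42.7% in EPS 1, 2 and 3. None of these 3 shares overlapped between groups (exact permutation p = 0.1 each, adjusted p = 0.117), and the Acvrl1 difference of -5.84 percentage points was -3.27 without EPS 1. Tgfbr1 and Acvr1b together, a sum chosen after the values were seen, took 20.4, 19.5 and 20.5% in the 3 controls and 42.2, 36.5 and 39.5% in EPS 1, 2 and 3.

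Among type II receptors, Tgfbr2 (chromosome 9, 116084293 to 116175360, minus strand), which binds TGF-beta itself, stood at 298, 308 and 295 CPM in controls 1, 2 and 3 and 409.7, 509 and 459.6 CPM in EPS 1, 2 and 3, and rose by 0.61 ± 0.12 (adjusted p = 0.00229). The activin receptor gene Acvr2b stood at 4.99, 6.34 and 4.23 CPM in controls 1, 2 and 3 and 3.18, 2.58 and 1.68 CPM in EPS 1, 2 and 3. It fell by 1.07 ± 0.32 (adjusted p = 0.021), a call lost without control 1 (adjusted p = 0.0561), without control 2 (0.0914) and with library totals (0.110). Bmpr2, the BMP type II receptor, was at 47.7 to 53.5 CPM in control and at 46.6, 32.2 and 19.1 CPM in EPS 1 to 3. It was not called (-0.62 ± 0.29, adjusted p = 0.1), but fell without EPS 1 (-0.90, adjusted p = 0.00453). Acvr2a was at 9.05 to 10.8 CPM in control and 9.14, 6.43 and 4.21 CPM in EPS 1 to 3. Unlike Bmpr2, it had EPS 1 within the control range. It was not called (-0.57 ± 0.28, adjusted p = 0.119) except without EPS 1 (-0.80, adjusted p = 0.0188). Tgfbr3, the co-receptor betaglycan, which presents TGF-beta2 and inhibin, stood at 172, 188 and 198 CPM in controls 1, 2 and 3 and 133, 157 and 134 CPM in EPS 1, 2 and 3. It fell by 0.39 ± 0.11 (adjusted p = 0.0142), a call lost without control 2 (adjusted p = 0.0569), control 3 (0.0612) or EPS 1 (0.0613), and with library totals its estimate was 0.036.

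The SMAD genes moved by small amounts, apart from Smad6 and Smad9. Smad3 (chromosome 9, 63646767 to 63757994, minus strand), which carries the transcriptional response to TGF-beta, stood at 51.1, 51.8 and 46.2 CPM in controls 1, 2 and 3 and 72.8, 73.5 and 65.9 CPM in EPS 1, 2 and 3, and rose by 0.51 ± 0.10 (adjusted p = 0.00233). Smad2 was not called, at 56.0 to 60.3 CPM in control and 52.1 to 56.5 CPM in EPS (-0.09 ± 0.09). In the BMP branch, Smad1 stood at 38.5, 39.3 and 39.6 CPM in controls 1, 2 and 3 and 47.7, 54.2 and 52.4 CPM in EPS 1, 2 and 3, and rose by 0.39 ± 0.09 (adjusted p = 0.00768). Smad5 stood at 88, 86.2 and 85.6 CPM in controls 1, 2 and 3 and 74.4, 71.1 and 73.8 CPM in EPS 1, 2 and 3. The groups did not overlap, and Smad5 fell by 0.24 ± 0.09 (adjusted p = 0.0371). That call was lost under 12 of the 16 alternatives, leaving out any 1 library except EPS 3 among them (adjusted p 0.0770 to 0.149), and the estimate was 0.18 with library totals. Smad9 stood at 8.63, 7.99 and 5.75 CPM in controls 1, 2 and 3 and 3.05, 4.69 and 1.53 CPM in EPS 1, 2 and 3, and fell by 1.27 ± 0.40 (adjusted p = 0.0255), a call lost without control 1 (adjusted p = 0.0868), without control 2 (0.0761) and with library totals (0.0957). Smad4, the common partner, was at 65.1 to 68.6 CPM in control and 74.0 to 75.9 CPM in EPS and was not called (0.17 ± 0.09, adjusted p = 0.123; with library totals, 0.59 and 0.0179).

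The inhibitory SMADs went opposite ways. Smad7 (chromosome 18, 75367529 to 75395935, plus strand), a feedback inhibitor that TGF-beta itself induces, stood at 19.2, 19 and 17.9 CPM in controls 1, 2 and 3 and 25.6, 27.1 and 36 CPM in EPS 1, 2 and 3. Each EPS library was above each control, a rise of 0.66 ± 0.16 (adjusted p = 0.00729). Smad6 (chromosome 9, 63953076 to 64022059, minus strand), a feedback inhibitor of BMP signalling that is well expressed in endothelium, stood at 27.4, 28.1 and 17.6 CPM in controls 1, 2 and 3 and 11.6, 10.7 and 11.7 CPM in EPS 1, 2 and 3. EPS libraries lay close together and below every control, and Smad6 fell by 1.11 ± 0.20 (2.15-fold, adjusted p = 0.00165). Together they took 19.1, 19.6 and 15.5% in the 3 controls and 13.8, 13.6 and 16.9% in EPS 1, 2 and 3 of the per-length level of the 8 Smads, which overlapped (exact permutation p = 0.2, adjusted p = 0.2). Smad6 as a share of the 2 inhibitory SMADs, chosen after the values were seen, was 66.8, 67.5 and 58.2% in the 3 controls and 38.9, 35.8 and 31.4% in EPS 1, 2 and 3. Smad2 and Smad3 as a share of the receptor-regulated SMADs, also chosen afterwards, was 44.9, 45.5 and 43.7% in the 3 controls and 51.8, 50.7 and 48.9% in EPS 1, 2 and 3.

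**Figure D3:**
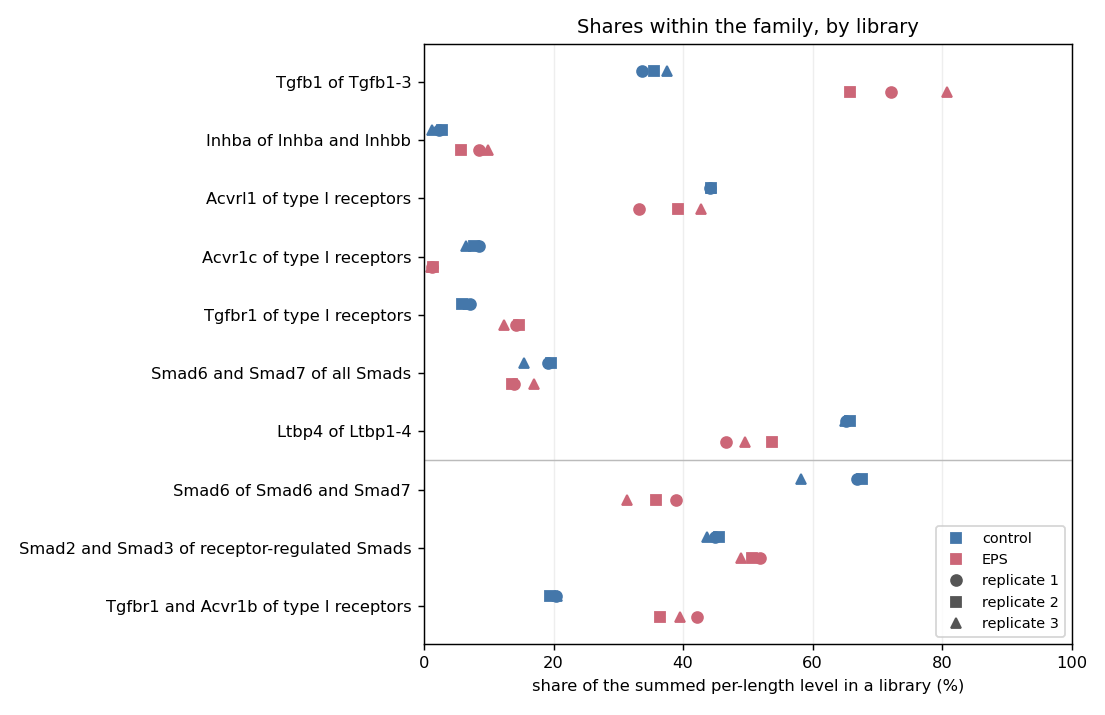
Share of the summed per-length level within each library (%), by library, for the 7 shares that were tested (above the line) and 3 chosen after the values were seen (below it). Controls and EPS do not overlap for 6 of the 7 tested shares, with Tgfb1 moving from 33.7 to 37.5% of its group in control to 65.7 to 80.8% in EPS.

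Secreted antagonists also moved in both directions. Grem1 (chromosome 2, 113746164 to 113758646, minus strand), gremlin, which blocks BMP2, BMP4 and BMP7 and is known from fibrotic tissue, stood at 13.7, 12.7 and 11.3 CPM in controls 1, 2 and 3 and 30.5, 22.1 and 28.7 CPM in EPS 1, 2 and 3. The groups were well apart, and Grem1 rose 2.15-fold, by 1.10 ± 0.17 (adjusted p = 6.64e-04). Nog, noggin, a BMP trap, stood at 3.21, 4.29 and 3.63 CPM in controls 1, 2 and 3 and 0.485, 1.69 and 0.643 CPM in EPS 1, 2 and 3. It fell by 1.95 ± 0.48 (adjusted p = 0.00882), and by 2.68 without EPS 2. Fibroblast markers, for the cells known to make gremlin, summed to 957 to 987 CPM in control and to 1061, 1370 and 807 CPM in EPS 1 to 3, so that the groups overlapped; 3 of 7 were higher and 1 lower.

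Fstl3, a follistatin-like trap of activins and myostatin, stood at 9.13, 8.51 and 9.18 CPM in controls 1, 2 and 3 and 4.85, 5.63 and 5.39 CPM in EPS 1, 2 and 3. It fell by 0.75 ± 0.18 (adjusted p = 0.00808; 0.335 with library totals). Fst, follistatin, was at 9.17 to 12 CPM in control and at 5.95, 13.9 and 5.69 CPM in EPS 1 to 3, and was called only without EPS 2 (-0.85, adjusted p = 0.0118). Fstl1, a secreted glycoprotein of mesenchymal cells, was at 240.5 to 274 CPM in control and at 348, 469 and 261 CPM in EPS 1 to 3. It missed the threshold (0.49 ± 0.20, adjusted p = 0.0688) but passed without EPS 3 (0.67, adjusted p = 0.00602), by DESeq2 (0.0142), with RLE factors (0.0404) and with library totals (0.0089). Fstl4 was untested, with 0 to 11 counts per library.

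Levels between genes were compared per kilobase of exon. Ltbp4 ranked highest of the 50 in control and the 4th in EPS, at 128 ± 4.3 CPM per kilobase in control and 37.3 ± 11.5 in EPS. Fstl1 ranked highest in EPS, at 52.2 ± 3.44 CPM per kilobase in control and 73.1 ± 21.2 in EPS, and its SD there spans Tgfbr2, the next in order, at 36.7 ± 0.855 CPM per kilobase in control and 56.1 ± 6.09 in EPS. Tgfb1 moved from rank 13 to rank 3, at 14.2 ± 1.17 CPM per kilobase in control and 47 ± 8.18 in EPS. Inhbb moved the other way, from rank 10 to 29, and Bmp6 from rank 12 to 31. In control Tgfb1 stood beside Bmp6 and Bmp4, with 14.5 ± 1.25 CPM per kilobase in control and 2.28 ± 0.288 in EPS for Bmp6 and 13.1 ± 3.67 CPM per kilobase in control and 6.31 ± 1.8 in EPS for Bmp4, 3 neighbours that did not differ beyond their spread.

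**Figure D4:**
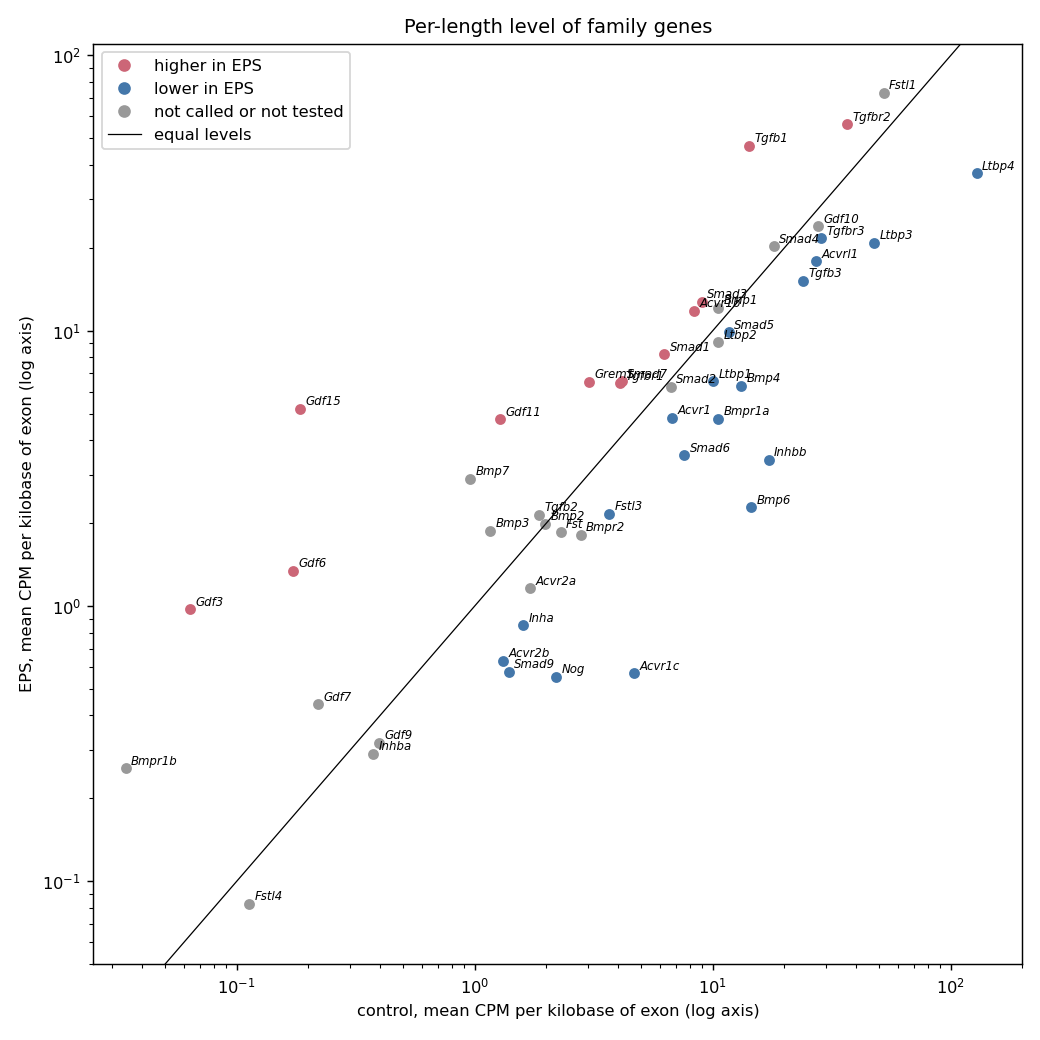
Mean level of 49 of the genes in control (horizontal) and EPS (vertical) as CPM per kilobase of exon, both on log axes, coloured by the call; the line marks equal levels. Tgfb1, Tgfbr2 and Fstl1 hold the top of the vertical axis beside Ltbp4, which lies below the line.

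Family genes varied more among EPS libraries than among controls. The ratio of the highest to the lowest library had a median of 1.46 over the tested members in EPS and 1.16 in control, against 1.37 and 1.19 over all genes tested. EPS 2 was the highest EPS library for 28 of 47 members (59.6%), against 29.7% of all genes, EPS 1 for 12 and EPS 3 for 7. EPS 2 also had the highest EPS sums of fibroblast and smooth muscle markers (above), and their part in this was not tested.

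Other genes of the pathway were read from 7 lists, against a background of 29.2% of all genes higher and 30.4% lower. Of the 17 antagonists and modulators tested, 2 rose (11.8%) and 5 fell (29.4%, near the background), with a median log2 fold change of -0.17. Crim1, which holds BMPs at the cell surface, went from 130.2 ± 11.3 to 57.8 ± 6.09 CPM (-1.17 ± 0.12, adjusted p = 7.75e-05). The serine protease genes Htra1 and Htra3 also fell, Htra1 from 285 ± 21.8 to 138 ± 10.2 CPM and Htra3 from 621 ± 38.5 to 158 ± 49.1 CPM. Bmper, a BMP-binding regulator, rose from 5.48 ± 1.92 to 28.1 ± 0.719 CPM (2.36 ± 0.26, adjusted p = 1.20e-04). All 4 called co-receptors, of 6 tested, were lower (median -0.91): Rgma (-1.54 ± 0.22) and Rgmb (-1.01 ± 0.16), which are BMP co-receptors, their partner Neo1 (-1.04 ± 0.22), and Eng, endoglin of the endothelium (-0.81 ± 0.13; not called with library totals, adjusted p = 0.179). Among other ligands 1 of 4 tested was higher, Lefty1, a nodal inhibitor, from 1.44 ± 0.435 to 3.06 ± 0.528 CPM (adjusted p = 0.0271); without control 1 (adjusted p = 0.0874), control 3 (0.0934), EPS 2 (0.0514) or EPS 3 (0.0719) it was not called.

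Genes that release or present latent TGF-beta had 4 of 12 higher and 2 lower (median 0.29). Nrros, which presents latent TGF-beta1 on myeloid cells, rose from 23.2 ± 1.34 to 117 ± 20.6 CPM (2.33 ± 0.14, adjusted p = 6.94e-06), beside the macrophage sums given above, whose part was not tested. Fbn2, a microfibril protein, rose from 1.31 ± 0.244 to 10.4 ± 4.64 CPM (2.99 ± 0.39). Itgb5, an integrin chain that can activate TGF-beta, fell from 259.6 ± 16.7 to 117 ± 21.2 CPM (-1.15 ± 0.14), and Furin, a protease that cleaves the precursors, by 0.56 ± 0.11 (adjusted p = 0.00219; 0.504 with library totals). Of 19 intracellular SMAD regulators 4 were higher and 7 lower (median -0.20). Of the co-repressor genes, Tgif1 rose from 10.4 ± 1.09 to 31.9 ± 1.4 CPM and Skil from 14.6 ± 1.73 to 40.1 ± 9.33 CPM. The SMAD phosphatase gene Ppm1a fell from 185 ± 12 to 90.8 ± 4.17 CPM, and the ubiquitin ligase gene Smurf1 by 0.85 ± 0.12 (adjusted p = 4.99e-04; 0.133 with library totals).

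Genes that TGF-beta is known to raise did not move one way: 7 of 17 rose and 6 fell (median log2 fold change 0.59). Junb, an AP-1 subunit, and the collagen genes Col1a1 and Col1a2 rose by 2.38 ± 0.14, 2.28 ± 0.24 and 1.91 ± 0.22, with Skil beside them (1.45 ± 0.19). The rest of the 7 that rose, named after their values were seen, were Col3a1 (1.43 ± 0.20), Itgae (1.41 ± 0.32) and Tgfbi (1.10 ± 0.17). The 6 that were lower, named after their values were seen, were Ccn2, connective tissue growth factor (-1.33 ± 0.24), Pmepa1, a feedback inhibitor (-1.04 ± 0.15), the cell cycle inhibitor genes Cdkn1a (-1.69 ± 0.39) and Cdkn2b (-0.78 ± 0.26), and the contractile genes Acta2 (-1.25 ± 0.35) and Tagln (-1.71 ± 0.64). Tagln was at 0.642 to 1.78 CPM even in control and its call, like that of Cdkn2b, was lost under most alternatives. Without EPS 3, Acta2 (adjusted p = 0.0592) and Cdkn1a (0.0559) were not called, and with library totals Pmepa1 (0.0505) and Acta2 (0.121) were not. The Acta2 call was also lost with controls 1 and 2 averaged as 1 sample and EPS 1 left out (adjusted p = 0.0809). Smooth muscle marker sums, given above, were lower in every EPS library, with 4 of 6 markers called lower, and their part in the Acta2 fall was not tested.

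Of 9 tested genes that respond to BMP signalling, 5 were lower and 1 higher (median -0.71). Id1 and Id3, direct BMP targets named after their values were seen, stood at 58.9, 58.9 and 69.8 CPM in controls 1, 2 and 3 and 20.4, 32.9 and 29.5 CPM in EPS 1, 2 and 3, and at 86.3, 83.6 and 96.4 CPM in controls 1, 2 and 3 and 41, 67.7 and 54 CPM in EPS 1, 2 and 3. They fell by 1.18 ± 0.18 (adjusted p = 7.32e-04) and 0.71 ± 0.18 (adjusted p = 0.00887; 0.420 with library totals). Hey1 and Atoh8, transcription factors known from endothelium, fell by 1.07 ± 0.14 and 0.91 ± 0.13, and Rgs4, a regulator of G protein signalling, by 1.80 ± 0.11. The exception was Id2, which rose from 30.3 ± 4.21 to 84.5 ± 14.1 CPM (1.48 ± 0.16, adjusted p = 1.03e-04); Id2 is also used by lymphoid and myeloid cells, whose marker sums rose and whose part was not tested. Endothelial marker sums fell with Id1, Hey1 and Atoh8 (values above), and their part was not tested either.

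**Figure D5:**
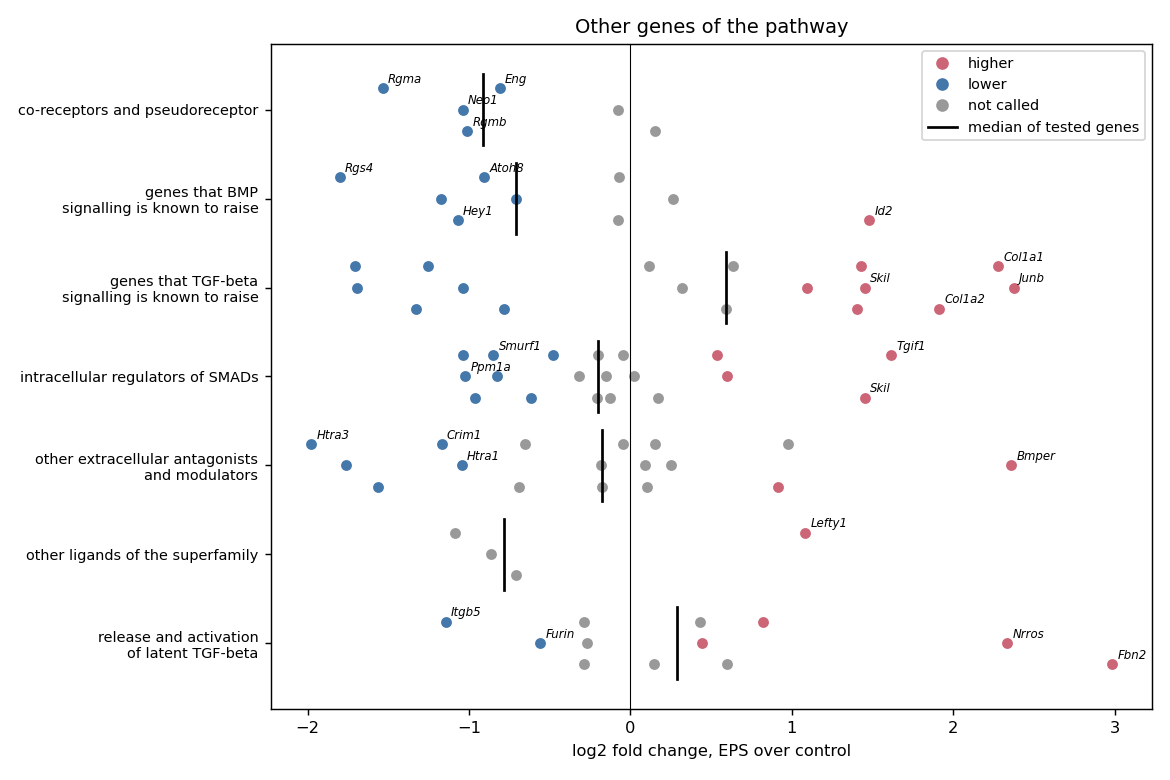
Log2 fold change of EPS over control for the tested genes of 7 lists of other pathway genes, coloured by the call, with the list's median as a vertical bar and called genes named by the rule labelled. BMP-responsive genes and co-receptors lie mostly to the left of 0, with Id2 at 1.48, and TGF-beta-responsive genes lie on both sides.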

How the data were processed

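The authors deposited raw read counts per gene symbol for 6 libraries; per the submitters' processing notes the build was mm10, and no source used here gives the aligner, counter or annotation. Per the labels' protocols, RNA was poly-A selected, with no step that marks strand, so reads of overlapping genes cannot be told apart; Bmp6 overlaps Txndc5, Tgfb3 Ttll5, Acvr2a Orc4 and Fstl3 Prss57.

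From the counts, edgeR 4.0.16 (R 4.3.3) kept 13980 of 14943 symbols by filterByExpr, scaled by TMM and fitted a robust quasi-likelihood test with no covariates; p-values were Benjamini-Hochberg adjusted. Exon lengths and positions are from GENCODE vM21 (GRCm38). Alternatives are in the closing section (DESeq2 1.42.0, limma 3.58.1). Members and lists were chosen with earlier results of these data known. All members are named except 1, which is counted but not reported here, and per list the 4 called genes of lowest p; other names are marked. On simulated counts with 200 changed genes (14140 tested), the test recovered 100% of 4-fold, 37.3% of 2-fold and 2.99% of 1.5-fold changes, with 6 false calls. The simulation gave every gene the same dispersion, 0.05, and changed far fewer genes than the 8333 called in the data. Its recovery rates are therefore a check of the code and not the power of the real fit.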

Additional observations from a re-analysis of the deposited data

How the results depend on the processing

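All directions of called members held under the 16 alternatives except those of Smad5 and Tgfbr3. With library totals only, 2185 genes, 8 members and 16 other pathway genes were lower, in place of 4245, 20 and 28, and the estimates changed sign for Tgfbr3 (0.036), Gdf10 (0.24), Smad5 (0.18), Ltbp2 (0.26), Smad2 (0.33), Fst (0.16), Inhba (0.063) and Gdf9 (0.023). Controls 1 and 2 were the closest pair of libraries (mean chi-square per gene 4.41, against 15.9 and 16.4 with control 3). Whether they are independent samples cannot be told from the labels. With controls 1 and 2 averaged as 1 sample, 12 members were higher and 14 lower, in place of 12 and 20. With EPS 1 also left out, 13 members were lower, and Ltbp2 stood at 0.13. Over the fits that each left out 1 library, uncalled genes that changed sign ran from -0.37 to 0.12 for Ltbp2 (positive without EPS 1), -0.0022 to 0.38 for Bmp1 and -0.11 to 0.40 for Tgfb2 (negative without EPS 2), and -0.10 to 0.068 for Bmp2 and -0.66 to 0.044 for Gdf9 (reversed without control 3). Bmp2 was at -0.000606 with limma-voom. Leaving out 1 library gave 12 to 17 members higher and 14 to 20 lower. As shares of raw counts in place of per-length levels, the differences were 8.39 percentage points for Inhba, -11.1 for Acvr1c, 9.90 for Tgfbr1 and -1.15 for the inhibitory SMADs, in place of 5.89, -6.35, 7.17 and -3.26. For Acvrl1 the difference was -2.96 in place of -5.84. The labels state no pairing of the libraries. Deviations of same-numbered libraries had correlations of 0.23, -0.11 and 0.26. Those of differently numbered libraries ran from -0.34 to 0.22, so these values cannot decide whether replicate numbers mark pairs. With a replicate block 12 members were higher and 19 lower, with Inha and Smad5 lost and Bmpr2 gained (-0.70, adjusted p = 0.0419). Depth limits Gdf15, Gdf6, Gdf3, Gdf9, Gdf7, Bmpr1b and Fstl4, with under 20 counts in every control.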
